A study of Mus musculus with 12 samples.

Results

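The genes named Zfp with a number code for zinc finger proteins of the mouse. Their signals were compared between the polysomal and non-polysomal RNA of 3T3-L1 cells before and after hormonal induction. Members were chosen by signal level: a probe was taken when its accession belonged to a gene named Zfp and a number, Zfp36 left out, and when the scanner software rated it well above background on all 12 arrays. This gave 357 probes of 248 genes, out of 470 Zfp probes of 299 genes and out of 41174 non-control probes on the array. The rule used the signal level, so the share of detected probes, 76.0% of the Zfp probes and 49.5% of all probes, is a description only. The rule also leaves out probes that were off in any group, and the members are therefore set beside the 20359 probes that passed the same rule as well as beside all probes.

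3T3-L1 cells are mouse fibroblasts, kept as a line, which become adipocytes in culture after hormonal induction. Cells of the 0 h groups were taken before induction. Cells of the 6 h groups had been given 0.5 mM isobutylmethylxanthine (IBMX, which raises cyclic AMP), 1 µM dexamethasone (a glucocorticoid) and 5 µg/ml insulin for 6 h, in medium with fetal bovine serum, HEPES and antibiotics. Uninduced cells were grown with newborn bovine serum instead, so the hormones and the change of serum cannot be told apart. All cells were lysed in the presence of cycloheximide, which holds ribosomes on the message, and the lysates were run on sucrose gradients. Fractions 5 to 7 made the non-polysomal and fractions 9 to 11 the polysomal RNA, with 3 replicates for each of the 4 groups. The cells are 1 line in culture, and its RNA was measured in bulk, so a change in fewer cells and a smaller change in every cell cannot be told apart.

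Most Zfp genes code for proteins with C2H2 fingers, short folds held by a zinc ion that read DNA and, in some members, RNA. Many carry a KRAB domain, which recruits the corepressor Trim28 and silences chromatin, often at transposable elements, and such genes tend to lie in clusters. A message bound by several ribosomes sediments with the polysomes, and an untranslated message stays near the top of the gradient.

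All 8 markers of preadipocytes and fibroblasts were well above background on every array, as were all 5 genes of the hormone response. Of 5 adipocyte markers 4 were detected on every array and Lep on none. Among the markers of leukocytes and endothelial cells none was detected on all arrays, and of 3 epithelial markers only Krt8 was. Each slide held 1 replicate of every group. Pearson's r over the members, which are not independent, was 0.993 to 0.998 between the arrays of a group. The spike-in RNAs that set the scale were weaker on the polysomal arrays at 6 h, and scaling by them instead of by the 75th percentile of the signal added, for probes measured on all arrays, 0.42 to every M-value, 0.49 to every polysomal change, 0.06 to every non-polysomal change, 0.89 to every fraction difference at 0 h and 1.31 to every one at 6 h. Signs and counts hold for the spike-in scale unless another is named.

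The M-value asks whether the ratio of polysomal to non-polysomal signal changed after induction. With p and np for polysomal and non-polysomal signal, it is the log2 difference p6 - np6 less the log2 difference p0 - np0, so a value of 1 is a 2-fold rise of that ratio. A change in either fraction can give it. The study also required a certain order of the group signals for the genes it listed, and no such filter was used here. It was tested with limma in 1 fit of the 4 groups with Benjamini-Hochberg adjustment over all probes, and a member was called when the adjusted p was below 0.05 and the value was above 1 or below -1. An M-value above 1 was called for 15 of 357 members (4.2%, of 14 genes), beside 12.1% of all probes and 17.6% of the detected probes. An M-value below -1 was called for 2 members (0.56%), beside 1.32% of all and 1.23% of the detected probes. The median M-value was 0.11 over the members, 0.49 over all probes and 0.50 over the detected probes. The quartiles of the members were -0.19 and 0.51. These counts and medians describe the members, and no test of the list was made.

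**Figure D1:**
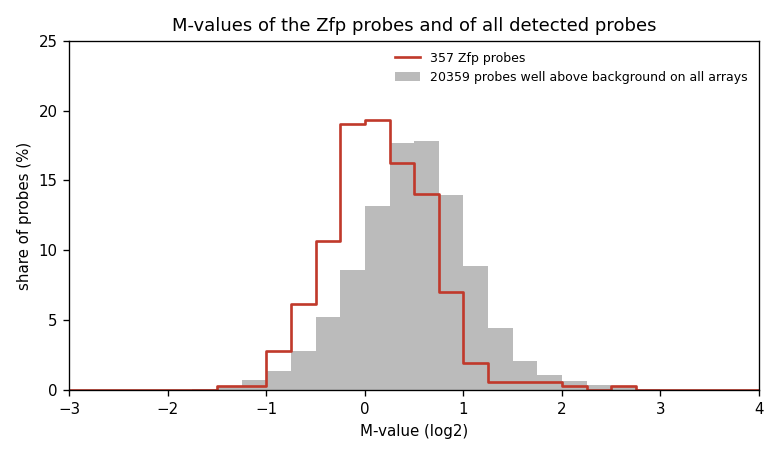
Share of probes (y axis, %) by M-value (x axis, log2, in bins of 0.25) for the 357 Zfp probes (line) and the 20359 probes well above background on all arrays (bars). The line lies to the left of the bars, with medians of 0.11 and 0.50.

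The members' median was below that of the detected probes on every slide. Computed from 1 replicate of each group, the medians were 0.21 and 0.48 for replicate 1, 0.06 and 0.45 for replicate 2, and 0.17 and 0.53 for replicate 3. Members were dimmer, with a median log2 signal of 7.16 beside 8.41, and were therefore compared in 4 ranges of signal that hold equal shares of the members. From the dimmest to the brightest range, the median M-value of the members was 0.06, -0.12, 0.18 and 0.37. That of the detected probes in the same ranges was 0.46, 0.36, 0.40 and 0.58, higher in each of the 4 ranges.

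Scaled by the 75th percentile, the medians were -0.31 over the members and 0.07 over the detected probes, and after quantile normalization -0.23 and 0.02. A straight line through the spike-ins gave 0.83 and 1.07, and the series' own table of log2 values gave 0.22 and 0.49. The split of the calls did turn with the scale. Of the called members 88.2% were above 1 with the spike-in offset, 18.2% (6 above, 27 below) with the 75th percentile, 29.6% (8 above, 19 below) after quantile normalization and 100% (130 above, 0 below) with the straight line. The shares of all probes above 1 and below -1 were 3.75% and 3.48% with the 75th percentile, 3.08% and 3.82% after quantile normalization and 63.4% and 0.139% with the straight line. Those of the detected probes were 5.35% and 4.25%, 4.43% and 4.4%, and 54.6% and 0.128%, while those of the members were 1.68% and 7.56%, 2.24% and 5.32%, and 36.4% and 0%. The exception to the order of the medians was the normexp background correction fitted on every spot, which failed on 3 arrays, with 1.88 for the members and 1.55 for the detected probes.

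**Figure D2:**
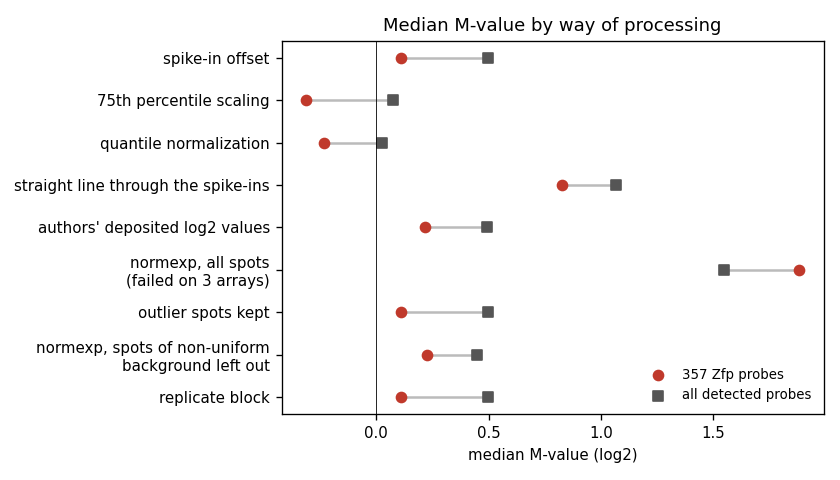
Median M-value (x axis, log2) of the 357 Zfp probes (circles) and of all detected probes (squares) under each way of processing (y axis). The circle lies to the left of the square in every line but that of normexp fitted on every spot, which failed on 3 arrays.

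Zfp628, Zfp367, Zfp524, Zfp622 and Zfp653 had the highest M-values with the same sign on all 3 slides. Zfp628 had log2 signals of 9.36, 9.59 and 9.45 in the non-polysomal and 9.68, 9.81 and 9.61 in the polysomal fraction at 0 h. After induction they were 8.84, 8.55 and 8.63 in the non-polysomal and 11.04, 10.75 and 11.03 in the polysomal fraction. The fractions were close before induction and far apart after it, with an M-value of 2.04 (SE 0.16, adjusted p = 1.7e-05 in limma).

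Zfp367, a factor linked to cell cycle genes, had another course. Its non-polysomal signal was 8.52, 8.50 and 8.46 at 0 h and 6.58, 6.65 and 6.65 at 6 h. Its polysomal signal was 7.83, 8.19 and 8.07 at 0 h and 8.14, 8.02 and 8.32 at 6 h. The non-polysomal signal fell by 1.87 with no overlap of the arrays, while the polysomal change was 0.13 (adjusted p = 0.31 in limma), and the M-value was 1.99 (SE 0.15).

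Zfp622 codes for a cytoplasmic factor that matures the large ribosomal subunit. Its non-polysomal signal was 9.54, 9.60 and 9.46 at 0 h and 9.10, 9.03 and 8.94 at 6 h, and its polysomal signal was 10.94, 11.09 and 11.01 at 0 h and 12.20, 12.14 and 12.13 at 6 h. It was higher in the polysomes at both times, and by 3.13 at 6 h, the highest polysomal excess of the members at that time. Its M-value was 1.66 (SE 0.10, adjusted p = 4.3e-06 in limma).

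Zfp653 and Zfp524 changed sides. Zfp653 had signals of 7.96, 7.88 and 7.88 in the non-polysomal and 7.27, 7.43 and 7.21 in the polysomal fraction at 0 h, and of 7.71, 7.45 and 7.54 against 8.55, 8.49 and 8.54 at 6 h. Its fractions did not overlap at either time, with the non-polysomal one higher before induction and the polysomal one after it (M-value 1.56, SE 0.12). Zfp524 went from 10.93, 11.10 and 10.96 against 10.07, 10.36 and 10.20 at 0 h to 10.17, 10.13 and 10.16 against 11.15, 11.21 and 11.35 at 6 h, for an M-value of 1.87 (SE 0.13).

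Zfp593, whose yeast counterpart accompanies the large ribosomal subunit out of the nucleus, rose by 2.07 in the polysomal fraction, from 11.53, 11.93 and 11.72 to 13.75, 13.69 and 13.95. In the non-polysomal fraction it went from 11.36, 11.46 and 11.40 to 12.33, 12.15 and 12.25, a difference of 0.83 (SE 0.11), and its M-value was 1.23 (SE 0.16). The other called members above 1 were Zfp114 (1.36), Zfp772 (1.25, with 0.63 at its second probe), both detected probes of Zfp710 (1.23 and 1.14), Zfp768 (1.07), Zfp239 (1.06), Zfp516 (1.06) and Zfp609 (1.02, with 0.23 at its second probe). Zfp516, Zfp239 and Zfp609 were near the limit. They were called in 8, 9 and 6 of the 12 fits that left out 1 array.

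The highest M-value of all, 2.59 (SE 0.38), came from 1 of 2 probes of Zfp335, a nuclear factor that binds a coactivator complex. One non-polysomal array at 0 h was lost as an outlier spot, and the other 2 had 8.47 and 7.88. The second Zfp335 probe gave an M-value of 0.48 (SE 0.14), so the probes of this gene disagreed.

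In 10 of the 15 called members above 1, the polysomal estimate was above 0 and the non-polysomal below 0. In 3 both were below 0, and in 2 both were above 0. The polysomal rise itself passed the call in 8 of the 15, and the non-polysomal fall in 4. The M-value is the polysomal change less the non-polysomal change, so a call above 1 partly sets these directions. They describe the called members only, and were not counted for the detected probes.

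Only Zfp871 and Zfp445 were called below -1. Zfp871 had non-polysomal signals of 5.45, 5.38 and 5.60 at 0 h and 6.63, 6.37 and 6.58 at 6 h, and polysomal signals of 6.68, 6.92 and 6.67 at 0 h and 6.31, 6.44 and 6.48 at 6 h. The fractions did not overlap at 0 h, with the polysomal one higher, and overlapped at 6 h (M-value -1.39, SE 0.15). Its other 2 detected probes gave -0.79 and 0.82, and the latter did not pass (adjusted p = 0.15 in limma).

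Zfp445 guards genomic imprints together with Zfp57. Its non-polysomal signal was 4.37, 4.41 and 4.07 at 0 h and 5.09, 5.09 and 4.92 at 6 h, and its polysomal signal was 5.72, 5.95 and 6.11 at 0 h and 5.48, 5.82 and 5.59 at 6 h. The M-value was -1.05 (SE 0.19), with -0.88 at its second probe, and the call was kept in 9 of the 12 fits without 1 array.

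**Figure D3:**
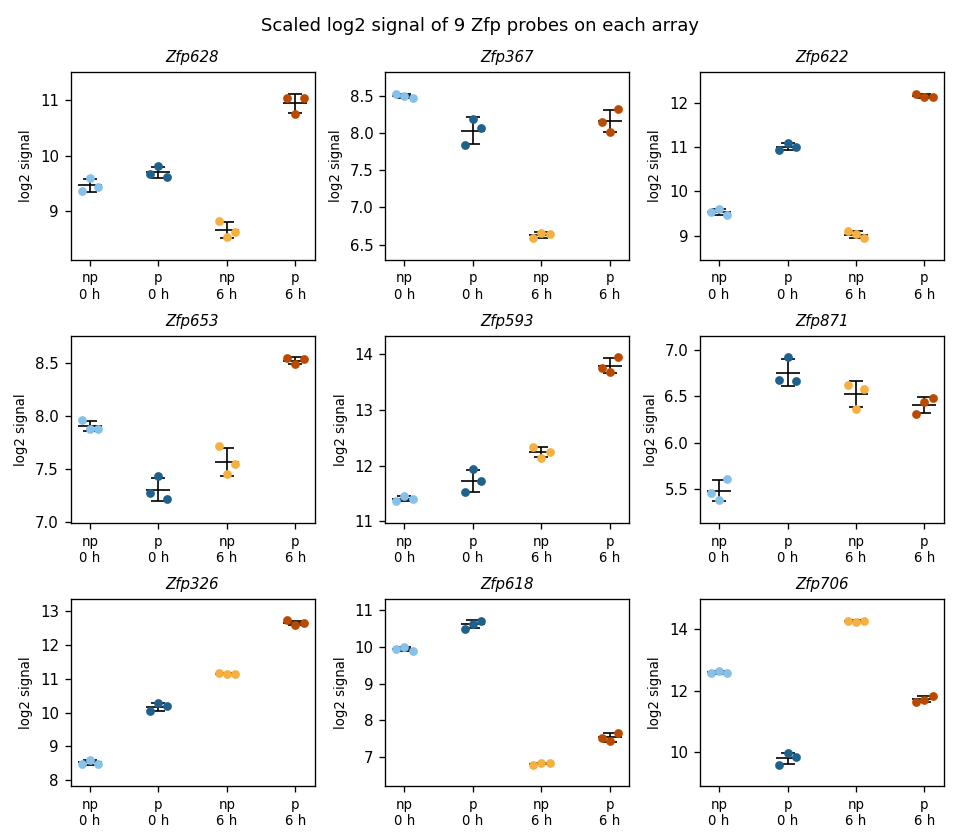
Scaled log2 signal (y axis) of 9 Zfp probes in the non-polysomal (np) and polysomal (p) fraction at 0 h and 6 h (x axis). Points are the arrays of 3 replicates, the wide bar is the mean and the whiskers are 1 SD. The fractions of Zfp628 part further after induction, those of Zfp653 change sides, Zfp871 loses its polysomal excess, and Zfp326 and Zfp618 move alike in both fractions.

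The stretches at the annotated start of the gene are shown for members of both directions, because messages that begin with C and a run of pyrimidines, as those of ribosomal proteins do, are known to be regulated at the polysome. The stretches are from the RefSeq table of the build GRCm38.p6, with 10 bases before the start in lower case and 20 bases from the start in capitals. Rpl27a, a ribosomal protein gene, is given for comparison.
Zfp622 (chr15:25984356-25984385, plus strand): agtttcctgtGCGAGTCGGAAGTTCCCTCA
Zfp653 (chr9:22071357-22071386, minus strand): cgaggctcctAACAACGGGGGAGGCCGGTA
Zfp628 (chr7:4915207-4915236, plus strand): gcggcggcggGGTTTGTGTGCGCGAGAGGC
Zfp335 (chr2:164911731-164911760, minus strand): cccagctgacCTCAGCCCTAACACCGGGCA
Zfp445 (chr9:122865987-122866016, minus strand): cctcagaagcGTACTTCCGCTCTCGCAGAG
Rpl27a (chr7:109519185-109519214, plus strand): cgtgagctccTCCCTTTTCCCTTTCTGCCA
A start with C and then at least 4 pyrimidines was found in 0 of 11 windows of the members called above 1, in 6 of 256 member windows (2.34%) and in 2.51% of all 32851 windows. Annotated starts can lie some bases off, as at Rpl27a, where the run begins just before the start.

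The same table holds the 250 bases before and 50 after each start, and 205 of the 248 member genes had a window there. The letters TGACGTCA, the cyclic AMP response element, were searched because IBMX raises cyclic AMP, on both strands. They stood in 2 of the 11 windows of members called above 1, in 8 of 256 member windows (3.12%) and in 1.79% of all windows. The 11 windows were of 9 of the 14 genes called above 1. Of the windows of members called as risen in both fractions 0 of 12 held the letters, and of those called as fallen in both 1 of 10 did. Those 2 of the 11 windows, with the letters in capitals, were of Zfp335 and Zfp367.
Zfp335 (chr2:164911798-164911827, minus strand): tgggacctgcgTGACGTCAtgccacttccc
Zfp367 (chr13:64152460-64152489, minus strand): tgacaggacgcTGACGTCActgccgcgcgc
The shorter letters TGACG, which the longer motif contains, stood in 32.8% of the member windows and in 20.8% of all. The letters AGAACA, a short site of the glucocorticoid receptor, stood in 12.9% and 19.0%. A match describes the letters only.

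The change over time within each fraction shows what carried an M-value. In the polysomal fraction 48 members (13.4%) rose and 18 (5.04%) fell, beside 19.2% and 5% of all probes and 28.6% and 6.02% of the detected probes. In the non-polysomal fraction 35 members (9.8%) rose and 37 (10.4%) fell, beside 8.12% and 8.11% of all probes and 12.4% and 10.6% of the detected probes. The non-polysomal shares of the members were thus above those of all probes and below those of the detected probes. The median polysomal change was 0.13 over the members and 0.57 over the detected probes, while the median non-polysomal change was -0.01 and 0.03. With the 75th percentile the polysomal counts became 16 up and 71 down (18.4% up), after quantile normalization 16 and 52 (23.5% up), and the non-polysomal ones with the 75th percentile 32 and 41. The polysomal shares were then 4.48% and 19.9% of the members, 8.7% and 9.89% of all probes and 14.1% and 13.2% of the detected probes with the 75th percentile. After quantile normalization they were 4.48% and 14.6%, 7.78% and 9.33%, and 11.9% and 12.9%. The non-polysomal shares with the 75th percentile were 8.96% and 11.5% of the members and 11.1% and 12% of the detected probes.

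Of the members 22 probes of 15 genes rose in both fractions and 14 probes of 13 genes fell in both (6.16% and 3.92%), beside 6.58% and 3.42% of all probes and 10.9% and 4.31% of the detected probes. Scaled by the 75th percentile, 14 members rose in both and 26 fell in both, beside 7.78% and 7.54% of the detected probes. On the spike-in scale another 26 rose in the polysomal fraction alone, 23 fell in the non-polysomal fraction alone, 13 rose in the non-polysomal fraction alone and 4 fell in the polysomal fraction alone. These shares were 7.28%, 6.44%, 3.64% and 1.12%, beside 17.5%, 6.03%, 1.53% and 1.7% of the detected probes. No member was called in opposite directions, and 255 were called in neither fraction.

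Zfp326 had the highest changes in both fractions. It codes for a subunit of a complex that couples splicing to transcript elongation. The non-polysomal signal of one probe went from 8.49, 8.60 and 8.49 to 11.17, 11.15 and 11.14, and the polysomal signal from 10.04, 10.29 and 10.20 to 12.73, 12.60 and 12.65. The changes were 2.63 (SE 0.08) and 2.49 (SE 0.08), its second probe gave 2.20 and 2.24, and the M-values of both probes were near 0 (-0.14 and 0.04).

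Both probes of Zfp330, a nucleolar protein, rose in the polysomal fraction, by 2.13 and 2.22, and in the non-polysomal fraction, by 1.32 and 1.28. Both probes of Zfp706 rose by 1.93 and 1.92 in the polysomal and by 1.67 and 1.77 in the non-polysomal fraction. The 3 probes of Zfp263 rose by 1.29 to 1.59 and by 1.24 to 1.56. The other genes with a probe that rose in both were Zfp9, Zfp35, Zfp275, Zfp420, Zfp472, Zfp623, Zfp658, Zfp672, Zfp707, Zfp715 and Zfp770.

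Zfp618 had the lowest polysomal change. Its non-polysomal signal went from 9.93, 9.99 and 9.88 to 6.80, 6.84 and 6.85 and its polysomal signal from 10.49, 10.63 and 10.70 to 7.51, 7.44 and 7.67. The log2 changes were -3.10 and -3.07, with an M-value of 0.04 (SE 0.12). Zfp41 changed by -3.26 in the non-polysomal and -2.54 in the polysomal fraction, Zfp827 by -2.25 and -2.02, and Zfp3 by -1.95 and -1.46. Of the 3 probes of Zfp820, 2 changed by -1.73 and -1.67 in the non-polysomal fraction and by -1.73 and -1.69 in the polysomal fraction, and the third by -0.91 and -0.54. Zfp30, Zfp185, Zfp414, Zfp438, Zfp455, Zfp521, Zfp595 and Zfp945 also had a probe that fell in both.

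**Figure D4:**
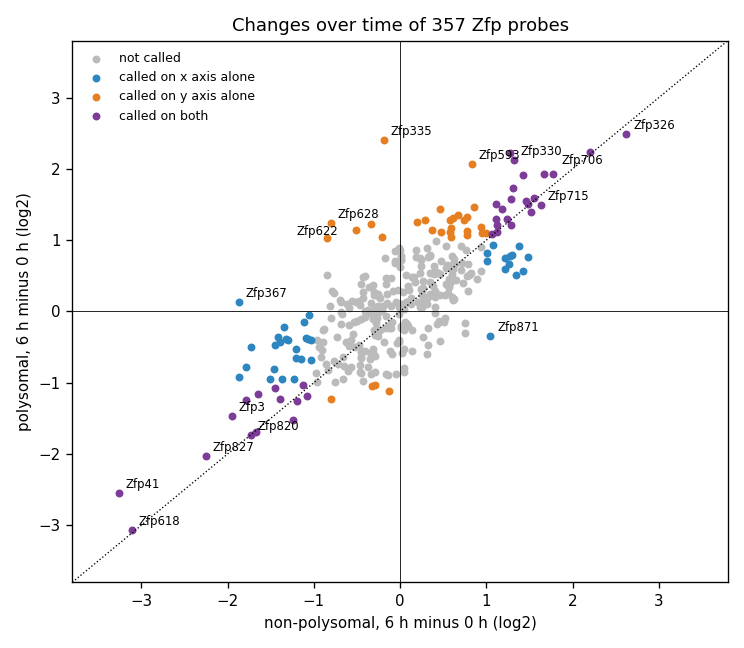
Change from 0 h to 6 h in the polysomal (y axis) and non-polysomal fraction (x axis) of the 357 Zfp probes, both on the log2 scale, with colours for the fraction in which a probe was called. The dotted line marks equal changes, and Zfp326, Zfp618 and Zfp827 lie on or near it while Zfp628, Zfp335 and Zfp367 lie above and Zfp871 lies below it.

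At each time the polysomal and non-polysomal signals were also compared with each other. Before induction 92 members (25.8%) were higher in the polysomal and 24 (6.72%) in the non-polysomal fraction, beside 27.3% and 9.83% of all probes and 46.4% and 12.1% of the detected probes. After 6 h the counts were 113 (31.7%) and 16 (4.48%), beside 37.3% and 6.42% of all probes and 58.9% and 7.47% of the detected probes. The median difference of the members was 0.55 at 0 h and 0.53 at 6 h, and that of the detected probes was 0.88 and 1.32. The members' medians at the 2 times were -0.34 and -0.78 with the 75th percentile, -0.20 and -0.48 after quantile normalization and 0.47 and 1.20 with the straight line. With the 75th percentile the counts were 13 higher and 96 lower at 0 h (11.9% of the calls higher) and 12 and 136 at 6 h (8.11%). Shares at 0 h were 3.64% and 26.9% of the members, 11.6% and 26.7% of all probes and 20.4% and 25.4% of the detected probes. At 6 h they were 3.36% and 38.1%, 12.3% and 22.2%, and 22.1% and 23.7%. After quantile normalization the counts were 23 and 74 at 0 h and 16 and 96 at 6 h. The member shares were then 6.44% and 20.7%, and 4.48% and 26.9%, beside 26% and 20.8%, and 24.1% and 19.1%, of the detected probes. The side on which many probes lay thus turned with the scale.

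Of the members 65 were higher in the polysomal fraction at both times and 13 in the non-polysomal fraction at both times (18.2% and 3.64%), beside 25.1% and 5.55% of all probes and 44% and 6.98% of the detected probes. These counts were 6 and 81 with the 75th percentile, beside 14.7% and 19.3% of the detected probes. On the spike-in scale another 48 members (13.4%) had a polysomal excess at 6 h alone and 27 (7.56%) at 0 h alone, beside 14.8% and 2.38% of the detected probes. None changed from one called side to the other.

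Zfp143, an activator that binds promoters, had the largest polysomal excess at 0 h. Its signals were 4.90, 4.87 and 4.82 in the non-polysomal and 7.03, 7.22 and 7.16 in the polysomal fraction, a difference of 2.27 (SE 0.09). Zfp207, which acts on the spindle and in splicing, had 9.67, 9.77 and 9.73 against 11.83, 12.03 and 11.89, a difference of 2.19 that was 2.87 at 6 h, and its second probe gave 1.97 and 2.88. The 2 probes of Zfp830 had differences of 2.10 and 2.20 at 0 h and of 3.08 and 2.90 at 6 h.

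At the other end lay Zfp773, Zfp672 and Zfp706. Zfp773 had signals of 11.92, 11.98 and 11.95 in the non-polysomal and 8.41, 8.77 and 8.66 in the polysomal fraction at 0 h, and of 10.66, 10.63 and 10.60 against 8.05, 8.22 and 8.40 at 6 h. The fractions were far apart at both times, by -3.34 and -2.40, but its second probe gave 0.83 and 1.22, of the opposite sign. One probe of Zfp706 gave -2.81 at 0 h and -2.55 at 6 h, and its second probe -2.55 and -2.39, while the signal of both probes rose in both fractions. For Zfp672 the probes disagreed, with -3.12 at one and -0.09 at the other at 0 h, and -2.82 and 0.40 at 6 h.

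**Figure D5:**
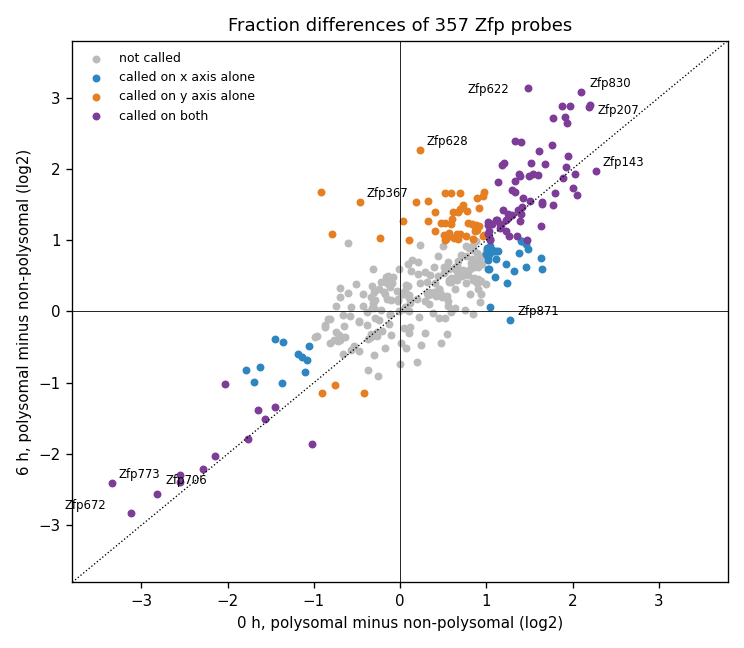
Polysomal minus non-polysomal log2 signal at 6 h (y axis) and at 0 h (x axis) of the 357 Zfp probes, with colours for the time at which a probe was called. Most points lie near the dotted line of equal differences, with Zfp628 and Zfp367 above it, Zfp871 below it, and Zfp773, Zfp672 and Zfp706 at the non-polysomal end.

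Genes with a known part in fat cells were described from a list of 11 genes, of which 9 had 11 member probes. The rule left out Zfp467 of the list, which was well above background on 6 arrays. Its mean non-polysomal signal went from 6.87 at 0 h to 1.21 at 6 h, and its polysomal signal from 6.81 to 1.61. In the non-polysomal fraction 5 of the 11 probes fell and 0 rose, with a median of -0.89, and in the polysomal fraction 2 fell and 1 rose, with a median of -0.55. The median of the detected probes was 0.03 and 0.57. Of the detected probes 10.6% fell and 12.4% rose in the non-polysomal fraction, and 6.02% fell and 28.6% rose in the polysomal fraction. The 5 that fell in the non-polysomal fraction were those of Zfp30 (-1.79), Zfp395 (-1.78), Zfp521 (-1.40), Zfp217 (-1.23) and 1 of 2 probes of Zfp423 (-1.30).

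Zfp521, which holds mesenchymal cells back from the adipocyte fate, had non-polysomal signals of 12.22, 12.30 and 12.15 at 0 h and 10.82, 10.87 and 10.78 at 6 h. Its polysomal signals were 12.25, 12.55 and 12.57 at 0 h and 11.23, 11.15 and 11.31 at 6 h. It fell in both fractions, by 1.40 and 1.23. Zfp423, which marks commitment to the preadipocyte fate, had polysomal changes of -0.40 and -0.43 at its 2 probes, inside the limit of size.

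Zfp516, an activator of brown fat genes, was the only probe of the list that rose. Its polysomal signal was 5.72, 6.06 and 5.89 at 0 h and 7.28, 6.94 and 7.21 at 6 h, while the non-polysomal signal was 4.63, 4.71 and 4.34 at 0 h and 4.93, 4.45 and 4.88 at 6 h. The polysomal arrays of the 2 times did not overlap and the non-polysomal ones did. Zfp638, a cofactor of early adipogenesis, had a polysomal change of 0.13 and a non-polysomal change of 0.07 (adjusted p = 0.43 and 0.77 in limma). Zfp407 and Zfp69 had no called change over time. Scaled by the 75th percentile, 6 of the 11 probes fell in the polysomal fraction and 0 rose, and 5 fell in the non-polysomal fraction. Of the detected probes 13.2% fell and 14.1% rose in the polysomal fraction at this scale, and 12% fell in the non-polysomal fraction. With the straight line the median polysomal change turned to 0.03, with 1 rise and 0 falls, while 6 fell in the non-polysomal fraction.

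Genes whose proteins act on RNA or ribosomes were described from a list of 9 genes with 15 member probes. Their polysomal signal rose at 8 of 15 probes of 6 genes and fell at 0, with a median change of 1.14, beside 28.6% that rose and a median of 0.57 among the detected probes. The genes were Zfp326, Zfp593, Zfp622, Zfp598, Zfp346 and Zfp830. In the non-polysomal fraction only the 2 probes of Zfp326 rose (13.3%), beside 12.4% of the detected probes. The median M-value of the list was 0.67, and 2 of its probes, Zfp622 and Zfp593, were called above 1 (13.3%). Among the detected probes the median was 0.50, and 17.6% were called above 1. With the 75th percentile or quantile normalization 3 of the 15 probes rose in the polysomal fraction and 1 M-value was called, and with the straight line 13 rose and 8 M-values were called. Of the detected probes 14.1%, 11.9% and 52.4% rose in the polysomal fraction under these 3 scales. An M-value above 1 was called for 5.35%, 4.43% and 54.6% of them.

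Zfp598 codes for a ubiquitin ligase that senses collided ribosomes. Its polysomal signal went from 11.17, 11.36 and 11.29 to 12.58, 12.58 and 12.71, a rise of 1.35 (SE 0.08), and its non-polysomal signal from 10.09, 10.23 and 10.09 to 10.86, 10.78 and 10.80. The arrays of the times did not overlap in either fraction. Zfp346, which binds double-stranded RNA, rose by 1.28 in the polysomal fraction. The 4 probes of Zfp106 had M-values from -0.18 to 0.71.

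Genes that act on chromatin or as regulators of many promoters were described from a list of 18 genes with 32 member probes. Their median M-value was -0.06, and 1 probe (of Zfp335) was above 1 and 1 (of Zfp445) below -1 (3.12% each), beside 17.6% and 1.23% and a median of 0.50 among the detected probes. In the polysomal fraction 2 probes rose and 0 fell (6.25% and 0%), beside 28.6% and 6.02% of the detected probes. Those that rose were the probe of Zfp131 and 1 of 2 probes of Zfp335, whose other probe changed by 0.22. In the non-polysomal fraction 2 rose, Zfp451 (1.35) and 1 of 4 probes of Zfp148 (1.38), and 1 fell, Zfp217. These were 6.25% and 3.12%, beside 12.4% and 10.6% of the detected probes. Below the limit of size, both probes of Zfp809, which silences retroviruses, had negative M-values (-0.34 and -0.90) and that of Zfp57 was 0.58. With the 75th percentile 6 probes of this list had a called M-value below -1 and after quantile normalization 7, whereas with the straight line 10 were above 1 and 0 below -1. Of the detected probes 4.25% and 4.4% were called below -1 with the 75th percentile and after quantile normalization. With the straight line 54.6% of them were above 1 and 0.128% below -1.

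The partners through which KRAB proteins act had 25 detected probes of 13 genes. Trim28, the corepressor itself, had a called M-value of 1.08 and a polysomal change of 0.84, inside the limit of size. Its M-value was 0.66 with the 75th percentile and 0.31 after quantile normalization, which ends the call, and 1.32 with the straight line. A probe of the remodeller Chd4 also had a called M-value above 1 (1.69), whereas its other 2 detected probes had -0.43 and -0.11. Resf1 (-1.22 and -1.04 at 2 of 3 probes) and a probe of Chd3 (-1.05) were called below -1. The other detected probes of Chd3 had -0.26, -0.22 and -0.26, and none of these passed the limit of the adjusted p. The counts of partner probes above 1 and below -1 were 2 and 3 on the spike-in scale, 1 and 3 with the 75th percentile, 0 and 4 after quantile normalization and 3 and 0 with the straight line. They were 2 and 1 with the deposited log2 values, where the called probe of Chd3 had -0.63 and lost its call. On the spike-in scale the partner shares were 8% and 12%, beside 17.6% and 1.23% of the detected probes. The related Zbtb genes had a median M-value of 0.39 over 48 detected probes, and the Zscan and Zkscan genes one of 0.08 over 16. An M-value above 1 was called for 4.17% of these Zbtb probes, near the share of the members, and for 12.5% of the Zscan and Zkscan probes. Below -1 it was called for 0% of both.

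Of the 248 genes 86 had 2 to 4 member probes. The M-values of a gene's probes lay within 0.5 of each other for 53 of the 86 and more than 1 apart for 7. Over the 70 genes with exactly 2 member probes, Pearson's r between the probes was 0.49 for the M-value and 0.78 for the non-polysomal change, as a description across genes that share arrays. Member genes whose next protein-coding gene is another Zfp gene (127 genes) had a median M-value of 0.09, and those with no such neighbour (120 genes) one of 0.17.

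At the dim end were single probes of Zfp599, Zfp933 and Zfp609, with mean log2 signals of 3.85, 3.94 and 4.01. Just outside the rule, 1 probe each of Zfp101, Zfp369 and Zfp2 had the highest signals among those detected on 11 arrays, with 4.98, 4.68 and 4.26. Their M-values were -0.66, 0.47 and 0.63. Of the 113 Zfp probes that were no members, 35 were well above background on no array and 78 on 1 to 11 arrays.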

How the data were processed

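RNA of 4 groups with 3 replicates each was measured on 12 one-color Agilent arrays. The authors deposited intensities from Agilent Feature Extraction 10.7.1.1, of which the background-subtracted signal was used, and log2 values per probe, used as an alternative. Spots marked as outliers were left out (3 members lost a value on some array), spots of a probe were averaged on the log2 scale, and each array was scaled by the mean of 10 spike-in transcripts with 32 spots each. Symbols came from RefSeq accessions. The precision is limited by the number of arrays, and no member value was saturated. Tests used limma 3.58.1 in R 4.3.3 (files read with the package data.table, version 1.17.8), with the 4 groups in 1 fit and adjustment over all probes; 19 probes had no M-value. The steps were tested on simulated data.

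The members and gene lists were chosen with earlier results of these data known. Genes were named by rule: the 8 highest and lowest M-values with the same sign in every replicate, the 5 highest and lowest changes in each fraction, the 3 highest and lowest fraction differences at each time, the lists, and the dimmest members. Others are named where a count of called members calls for it. The replicate number is also the slide. The correlation of deviations of same-numbered arrays ran from -0.10 to 0.42, so the numbers were not used to pair arrays in the main fit. Values given for a single replicate, the rule of the same sign and the replicate block did join arrays of the same number. The study's methods call the replicates biological, and p-values measure the spread between these arrays. The mean signal needed for the planned normexp correction was not used here, and the median signal took its place. Protein sequences were not used here.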

Additional observations from a re-analysis of the deposited data

Results flagged for a closer look

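The M-value is the difference between the effect of induction on the polysomal and on the non-polysomal fraction, and it passed its test and the limit of size for 17 members. Above 1 these were Zfp335 (2.59), Zfp628 (2.04), Zfp367 (1.99), Zfp524 (1.87), Zfp622 (1.66), Zfp653 (1.56), Zfp114 (1.36), Zfp772 (1.25), Zfp593 (1.23), Zfp710 (1.23 and 1.14), Zfp768 (1.07), Zfp239 (1.06), Zfp516 (1.06) and Zfp609 (1.02). Below -1 they were Zfp445 (-1.05) and Zfp871 (-1.39). Scaled by the 75th percentile, Zfp335, Zfp628, Zfp367, Zfp524, Zfp622 and Zfp653 were still called above 1 (1.14 to 2.15), and the M-values of Zfp445 and Zfp871 were -1.47 and -1.81. With the straight line 15 of the calls above 1 and 0 of those below -1 were kept, and with the deposited log2 values 11 and 0. Both normexp fits also kept 0 calls below -1. The M-values of the Zfp871 probes ran from -1.39 to 0.82 on the spike-in scale.

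Outside the members, 54 Zfp probes were well above background on all 3 arrays of at least 1 group but not on all 12 arrays. They enter no count or median of the members.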

How the results depend on the processing

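Keeping the outlier spots, fitting the detected probes alone, a trend in the prior variance and the replicate block left all counts of called members within 1.5 times. With the replicate block, which is also the slide, the M-value was called above 1 for 15 and below -1 for 2 members, and every called member kept its call in each of the 5 comparisons. The adjusted p of 4 named values passed the limit without it and not with it (Zfp106, 0.059, Zfp110, 0.058, Zfp809, 0.051, and Zfp91, 0.056). The values below are those whose count moved by over 1.5 times, whose median moved by more than 1 SD of the replicates, or whose sign turned. The cause was not tested. With the 75th percentile the calls were 6 above 1 and 27 below -1 for the M-value, 16 above 1 and 71 below -1 for the polysomal change, 13 above 1 and 96 below -1 for the fraction difference at 0 h and 12 above 1 and 136 below -1 for the fraction difference at 6 h. There the median of the members was -0.31 for the M-value, -0.36 for the polysomal change, -0.074 for the non-polysomal change, -0.34 for the fraction difference at 0 h and -0.78 for the fraction difference at 6 h. Under this setting the sign of the M-value turned at Zfp217 (-0.14), Zfp521 (-0.25), Zfp638 (-0.36), Zfp69 (-0.095), Zfp106 (-0.036), Zfp326 (-0.38), Zfp110 (-0.011), Zfp131 (-0.18), Zfp148 (-0.40), Zfp384 (-0.034), Zfp91 (-0.075 and -0.049) and Zfp933 (-0.35). After quantile normalization the calls were 8 above 1 and 19 below -1 for the M-value, 16 above 1 and 52 below -1 for the polysomal change, 23 above 1 and 74 below -1 for the fraction difference at 0 h and 16 above 1 and 96 below -1 for the fraction difference at 6 h. There the median of the members was -0.23 for the M-value, -0.23 for the polysomal change, -0.20 for the fraction difference at 0 h and -0.48 for the fraction difference at 6 h. Here the sign of the M-value turned at Zfp521 (-0.49), Zfp638 (-0.47), Zfp106 (-0.16), Zfp326 (-0.49), Zfp131 (-0.21), Zfp148 (-0.42), Zfp384 (-0.064), Zfp91 (-0.0070 and -0.15), Zfp599 (-0.00076) and Zfp933 (-0.45). With the spike-ins fitted by a line the calls were 130 above 1 and 0 below -1 for the M-value, 126 above 1 and 3 below -1 for the polysomal change and 218 above 1 and 10 below -1 for the fraction difference at 6 h. There the median of the members was 0.83 for the M-value, 0.74 for the polysomal change, -0.13 for the non-polysomal change and 1.20 for the fraction difference at 6 h. There the sign of the M-value turned at Zfp78 (0.094), Zfp407 (0.42 and 0.27), Zfp106 (0.81 and 0.64), Zfp326 (0.18), Zfp143 (0.47), Zfp148 (0.33), Zfp281 (0.33), Zfp462 (0.76 and 0.59), Zfp592 (0.50 and 0.42), Zfp644 (0.56 and 0.63) and Zfp809 (0.52). With normexp over all spots, which failed on 3 arrays, the calls were 2 above 1 and 0 below -1 for the M-value, 22 above 1 and 4 below -1 for the polysomal change, 6 above 1 and 9 below -1 for the non-polysomal change, 11 above 1 and 14 below -1 for the fraction difference at 0 h and 66 above 1 and 6 below -1 for the fraction difference at 6 h. There the median of the members was 1.88 for the M-value, 1.30 for the polysomal change, -0.77 for the non-polysomal change, -0.54 for the fraction difference at 0 h and 1.58 for the fraction difference at 6 h. Under this setting the sign of the M-value turned at Zfp871 (1.85), Zfp445 (2.58 and 2.15), Zfp292 (2.20), Zfp267 (1.10), Zfp809 (1.68 and 2.52), Zfp78 (2.89), Zfp407 (0.41 and 1.48), Zfp106 (3.08 and 2.06), Zfp326 (0.23), Zfp143 (2.21), Zfp148 (2.16), Zfp281 (0.70), Zfp451 (0.91), Zfp462 (2.61 and 1.78), Zfp592 (0.40 and 2.20) and Zfp644 (2.27 and 2.15 and 0.49). Here the sign of the polysomal change turned at Zfp820 (1.38 and 1.13). There the sign of the non-polysomal change turned at Zfp715 (-0.24). With the authors' deposited log2 values the calls were 0 below -1 for the M-value, 6 below -1 for the polysomal change, 21 above 1 and 18 below -1 for the non-polysomal change and 55 above 1 for the fraction difference at 0 h. There the median of the members was 0.22 for the M-value and 0.39 for the fraction difference at 0 h. Under this setting the sign of the M-value turned at Zfp106 (0.29 and 2.53), Zfp143 (0.030), Zfp148 (-0.027) and Zfp462 (0.080 and 0.094). With normexp on spots of uniform background, an alternative chosen after seeing the data, the calls were 0 below -1 for the M-value, 5 below -1 for the polysomal change, 14 above 1 and 15 below -1 for the non-polysomal change, 41 above 1 for the fraction difference at 0 h and 65 above 1 for the fraction difference at 6 h. There the median of the members was 0.23 for the M-value and 0.30 for the fraction difference at 0 h. Here the sign of the M-value turned at Zfp78 (0.0018), Zfp638 (-0.014), Zfp106 (0.34 and 0.16), Zfp143 (0.10), Zfp148 (-0.0058), Zfp462 (0.12 and 0.15), Zfp592 (0.042), Zfp644 (0.077) and Zfp809 (0.059). With the probes of a gene averaged the calls were 0 below -1 for the M-value, 31 above 1 for the polysomal change, 22 above 1 for the non-polysomal change, 15 below -1 for the fraction difference at 0 h and 8 below -1 for the fraction difference at 6 h. From replicate 1 alone the median of the members was 0.21 for the M-value and 0.42 for the fraction difference at 0 h. From replicate 2 alone the median of the members was -0.021 for the polysomal change and -0.079 for the non-polysomal change. From replicate 3 alone the median of the members was 0.71 for the fraction difference at 6 h. With outlier spots kept the sign of the M-value turned at Zfp106 (3.05). Over the fits without 1 array each, the M-values that turned and the counts that moved ranged from 1 to 4 for the count of M-values below -1, -0.066 to 0.16 for Zfp638, -0.24 to 0.051 for Zfp106, -0.056 to 0.11 for Zfp326, -0.068 to 0.089 for Zfp148, -0.068 to 0.043 for Zfp592 and -0.064 to 0.24 for Zfp933. Signals near background limit the dimmest members. The planned groups by protein sequence were not run.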
